A study of Mus musculus with 9 samples.

Results

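Interleukin-17A-secreting and interferon-gamma-secreting mouse CD4+ T cells were set directly against each other across all genes. The comparison takes the 3 arrays titled Th17 and the 3 titled Th1, which are 6 of the 9 arrays of the series, and the members are every gene measured on them. All cells came from BALB/c mice, from spleen and lymph nodes, and were used as isolated from the animals, without polarising culture. They were enriched for CD4 on magnetic columns and stimulated for 3 h with 10 ng/ml of the phorbol ester PMA and 500 ng/ml of the calcium ionophore ionomycin. An assay that captures secreted cytokine on the cell surface then allowed live sorting. The Th1 samples were CD3+CD4+ cells with low CD45RB that had secreted interferon gamma and no interleukin-17A, and the Th17 samples were the same kind of cells with interleukin-17A and no interferon gamma. The 3 remaining arrays hold naive cells (CD3+CD4+ with high CD45RB) given the same stimulation. They entered the estimate of the spread, the filter on dim probes and the choice of the probe that stands for a gene. Naive levels are also given beside some genes below. The age and sex of the mice, and whether each sample came from its own animals, are not given in the sources used here, so the p-values refer only to how these samples varied, and part of that spread may be technical.

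CD4+ helper T cells that have met antigen lower their CD45RB and commit to making particular cytokines. Th1 cells are driven by interleukin-12 through STAT4 and the transcription factor T-bet and act against microbes inside cells, mainly through interferon gamma. Th17 cells are driven by interleukin-6 with TGF-beta, and are expanded by interleukin-1 and interleukin-23, through STAT3 and nuclear receptors. They act at mucosal surfaces and are involved in autoimmune inflammation. PMA with ionomycin bypasses the T cell receptor and switches on the cytokine genes that a cell has already opened.

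The levels given below are log2 of the processed spot signal minus the 75th percentile of the same array, so 0 is a bright probe and about -5 the lowest signal that is still above background. Set against other genes on the same array they also carry the probe's own brightness, so levels are compared only between samples. Of 19072 genes tested, 3001 (15.7%) differed between Th17 and Th1 at a limma adjusted p under 0.05, 1534 (8.04%) being higher in Th17 and 1467 (7.69%) higher in Th1. Counts of called genes in the lists below stand beside these shares, and no list was tested as a set. Some called genes met the filter on dim probes only through the group where they were high, so the list counts follow partly from that filter. At least 2-fold differences were found for 1225 genes (6.42%), 581 (3.05%) higher in Th17 and 644 (3.38%) in Th1. The median size of a called difference was 0.84 on the log2 scale, and 50 genes higher in Th17 and 52 higher in Th1 differed by 4 or more. The 3 arrays of one group all lay above the 3 of the other for 6715 genes (35.2%), Th17 being above for 3461 (18.1%) and Th1 for 3254 (17.1%). That held for 1533 of the 1534 genes called higher in Th17 and 1465 of the 1467 called higher in Th1. For a called gene, lack of overlap therefore adds little to the call. Pearson r across genes was 0.982 to 0.992 between arrays of one group and 0.965 to 0.972 between a Th1 and a Th17 array. With the array percentile taken over the probes above background on all arrays in place of all probes, the median of all genes moved to -0.05 and the share of calls that were higher in Th17 fell to 41.6%, from 51.1%, so small differences depend on the scaling. In bulk samples such as these, fewer cells that express a gene and less RNA per cell cannot be told apart.

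**Figure D1:**
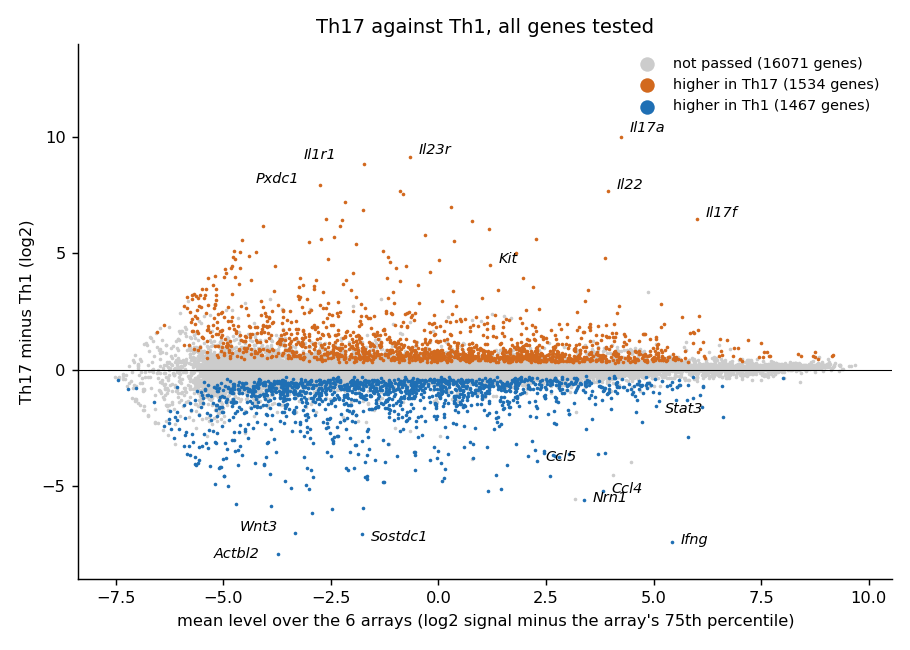
Each point is 1 gene, with its mean level over the 3 Th1 and 3 Th17 arrays (log2 signal minus the array's 75th percentile) on the horizontal axis and the Th17 minus Th1 difference (log2) on the vertical axis. The 1534 genes higher in Th17 are orange, the 1467 higher in Th1 are blue and the 16071 that did not pass are grey. Il17a and Ifng, the cytokines of the sort, stand near the upper and lower ends.

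The sorted cytokines themselves check the labels and, since they defined the gate, are given as a description. Il17a read 9.04, 9.16 and 9.51 on the Th17 arrays and 0.55, -0.42 and -2.40 on the Th1 arrays. Ifng read 9.28, 9.19 and 8.92 on the Th1 arrays and 2.03, 1.17 and 1.96 on the Th17 arrays. Neither gene overlapped between groups, and the Th17 level of Ifng was close to the 1.34, 1.32 and 1.61 of the naive arrays. Of the 6 genes of the markers that both gates shared, Cd3d did not pass (log2 difference -0.38, adjusted p = 0.0921) and nor did Ptprc, the gene of CD45 (0.05, adjusted p = 0.898). Cd4 (-0.52, limma adjusted p = 0.0421), Cd3e (-0.58, adjusted p = 0.0387) and Cd3g (-0.80, adjusted p = 0.00352) were lower in Th17. The Cd3e call was lost when Th1 replicate 1 or 2 or any Th17 replicate was left out, and the Cd4 call in 4 of those 6 fits, all but the ones that left out Th1 replicate 3 or Th17 replicate 1, with adjusted p up to 0.109; with the planned normexp background correction the log2 difference was 0.091 for Cd3e and 0.0034 for Cd4, neither called. Cd247, the CD3 zeta chain, read 2.07 and 2.11 on Th17 replicates 1 and 3 and -7.60 on replicate 2, against 2.45 to 2.94 on the Th1 arrays; its difference of -3.84 (adjusted p = 0.291) became -0.61 (adjusted p = 0.0417) without that replicate.

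Among the cytokines tied to the Th17 programme, the interleukin-17F and interleukin-22 genes went with Il17a. Il17f read 9.13, 9.11 and 9.49 on the Th17 arrays and 3.72, 2.60 and 2.0 on the Th1 arrays, a difference of 6.47 ± 0.73 (SE, as for every difference below; 3 arrays a group) or 88.5-fold (limma adjusted p = 0.000738). Il22, whose product acts on epithelial cells, read 7.97, 7.37 and 7.97 in Th17 against 0.94, -0.12 and -0.53 in Th1, a 204-fold difference (7.67 ± 0.47, adjusted p = 3.17e-05). Both genes were separated between groups by several log2 units, and Th1 replicate 1 was the highest of the Th1 arrays for Il17a, Il17f and Il22. Iltifb, a near-copy of Il22 whose probe may also read Il22, differed by 7.55 ± 0.54. Il21, a growth cytokine for B cells and Th17 cells, read 6.70, 5.90 and 6.39 in Th17 and 5.98, 4.91 and 4.58 in Th1, so the groups overlapped (1.18 ± 0.40, adjusted p = 0.0835; 0.0231 without Th1 replicate 1). Csf2, the gene of GM-CSF, read 4.75, 5.15 and 3.73 in Th17 and 3.39, 4.40 and 2.74 in Th1 and also overlapped (1.03 ± 0.46, adjusted p = 0.176). Of the 6 cytokines of this list that were tested, 2 were higher in Th17 and none higher in Th1 (3 and 0 at an unadjusted limma p under 0.05), with a median difference of 1.10 against 0.004 over all genes. Ccl20 and Il17c were not above background on enough arrays to be tested.

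Most receptors of the Th17 programme differed. Of 14 genes, 10 were higher in Th17, 3 were higher in Th1 and 1 did not pass, with a median difference of 2.52. Without the Th17 arrays, Il1r1, Il23r and Tmem176a would not have met the filter on dim probes, so the count and the median follow partly from that. Il23r, the specific chain of the interleukin-23 receptor, read 4.39, 3.83 and 3.54 on the Th17 arrays and -4.58, -4.48 and -6.63 on the Th1 arrays, a 568-fold difference (9.15 ± 0.54, limma adjusted p = 2.52e-05). It was 423-fold with arrays below the lowest signal above background set at that signal. Its partner chain Il12rb1, which the interleukin-12 receptor also uses, was 5.07-fold higher in Th17 (2.34 ± 0.32, adjusted p = 0.00194), whereas Il12rb2, the chain specific to the interleukin-12 receptor, read -3.91 to -3.45 in Th17 and -3.86 to -3.33 in Th1 (-0.05 ± 0.17, adjusted p = 0.861). Il1r1, the signalling interleukin-1 receptor, read 2.81, 2.59 and 2.69 in Th17 and was not well above background on any Th1 array, so it was at least 220-fold higher in Th17 (adjusted p = 3.86e-06). Il1r2, the decoy receptor of the same ligand, was higher in Th17 as well, at 6.63, 6.05 and 7.05 against 3.66, 3.98 and 3.64 (7.04-fold, adjusted p = 0.000562).

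Ccr6, the chemokine receptor that guides cells to Ccl20, read 6.25, 6.29 and 6.31 in Th17 and 1.44, 1.87 and 1.10 in Th1 (28.1-fold, 4.81 ± 0.51, limma adjusted p = 0.000535). Ltb4r1, a receptor of the lipid attractant leukotriene B4, was 34.0-fold higher in Th17 (adjusted p = 0.000202). The membrane protein genes Tmem176a and Tmem176b, which are neighbours in the genome, were 71.5-fold and 45.5-fold higher. Tmem176a was 51.4-fold higher with arrays below the lowest signal above background set at that signal. Il17re and Il17rc, chains of the receptors for interleukin-17 family members, were above background on the 3 Th17 arrays and on no Th1 array, which made them at least 5.13-fold and 2.47-fold higher in Th17; the Il17re call was lost without Th1 replicates 2 or 3 or Th17 replicates 1 or 2, and the Il17rc call without any array but Th17 replicate 3 (adjusted p up to 0.0535 and 0.11). Dpp4, a surface peptidase, was 2.57-fold higher (1.36 ± 0.17, adjusted p = 0.00143). The 3 receptors that went the other way were the interleukin-6 receptor chains Il6st, the shared signalling chain (-1.73 ± 0.29, adjusted p = 0.00581), and Il6ra (-0.96 ± 0.20, adjusted p = 0.0128), together with the tetraspanin Cd9 (-0.63 ± 0.10, adjusted p = 0.00422). On the naive arrays Il6ra read 4.66 to 5.12, above the 3.40 to 4.07 of Th1 and the 2.59 to 2.76 of Th17.

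The transcription factors of the Th17 programme were split. Rora, the nuclear receptor ROR-alpha, read 5.26, 4.94 and 5.0 in Th17 and 3.47, 3.02 and 2.79 in Th1, a 3.93-fold difference (1.97 ± 0.19, limma adjusted p = 0.000307). It left a gap between the groups, and was well above background in Th1 too.

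Stat3, which carries the interleukin-6, interleukin-21 and interleukin-23 signal, was higher in Th1. It read 6.01, 5.78 and 5.72 on the Th1 arrays and 4.62, 4.37 and 3.88 on the Th17 arrays, a difference of -1.55 ± 0.21 (limma adjusted p = 0.00181), and the second probe gave -1.67. The naive arrays read 4.95 to 5.47, between the groups. Of 19 regulators tested, 5 were higher in Th17, among them Rora, Zbtb16, Ahr and Etv6, 3 were higher in Th1 (Stat3, Fosl2 and Runx1) and 11 did not pass, with a median difference of 0.08. Ahr, the receptor for aryl hydrocarbons that supports interleukin-22 production, differed by 1.10 ± 0.25 (adjusted p = 0.0192), a call that 4 of the 6 fits without 1 array lost, those without Th1 replicates 2 or 3 and those without Th17 replicates 1 or 3 (up to 0.071). The Etv6 call was lost in the same 4 fits (up to 0.0683), the Fosl2 call without Th1 replicates 1 or 2 or Th17 replicates 2 or 3 (up to 0.106) and the Runx1 call when any 1 of the 6 arrays was left out (0.0575 to 0.11). Maf read 3.23, 3.47 and 3.50 in Th17 and 3.15, 2.12 and 2.02 in Th1; it did not pass (0.97 ± 0.31, adjusted p = 0.0706), and passed in the fit without Th1 replicate 1 (adjusted p = 0.00929), with the slide as a block (1.28 ± 0.25, adjusted p = 0.0246), within 1 slide (adjusted p = 0.0183) and with the slide as a random block (adjusted p = 0.0433). The early Th17 factors Batf (-0.06 ± 0.17), Irf4 (-0.16 ± 0.09) and Hif1a (-0.03 ± 0.17) did not pass, with adjusted p of 0.833, 0.284 and 0.927.

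**Figure D2:**
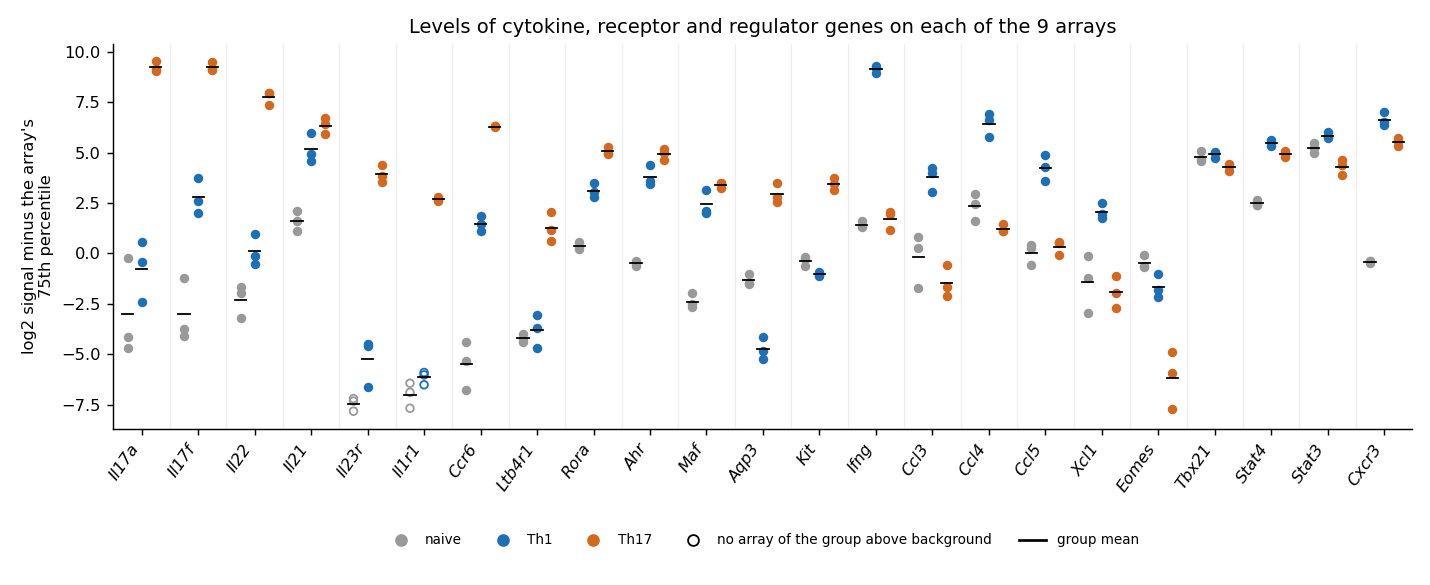
Levels of 23 genes on each of the 9 arrays (log2 signal minus the array's 75th percentile, vertical axis), with 3 points per group and a black bar at the group mean; hollow points mark groups with no array above background. The Th17 and Th1 points of Il17a, Il17f, Il22, Il23r and Il1r1 lie over 5 log2 units apart, whereas those of Il21 overlap and the means of Tbx21 and of Stat4 lie 0.62 and 0.52 apart.

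Other Th17-associated genes followed the receptors. Aqp3, a channel for water and glycerol, read 2.82, 3.47 and 2.57 in Th17 and -4.14, -4.84 and -5.23 in Th1, a 206-fold difference (7.69 ± 0.32, limma adjusted p = 7.89e-06), and the naive arrays lay between at -1.51 to -1.0. Serpinb1a, an inhibitor of neutrophil proteases, was 65.6-fold higher (6.04 ± 0.48, adjusted p = 0.000117). Acsbg1, a fatty acyl-CoA synthetase, read 2.03, 2.35 and 1.68 against -1.75, -0.69 and -1.57 (3.36 ± 0.35, adjusted p = 0.000515), and the zinc finger gene Zfp362 read 0.76, 1.05 and 1.10 against -1.91, -1.87 and -1.88 (2.85 ± 0.15, adjusted p = 1.32e-05). Both were separated without overlap. Of the 7 genes of this list 4 were higher in Th17 and Nkg7, a granule protein of cytotoxic cells, was higher in Th1 (-1.60 ± 0.11, adjusted p = 6.45e-05, with -4.41 at its second probe). The efflux pump Abcb1a (-0.98 ± 0.31, adjusted p = 0.0666; 0.0234 without Th17 replicate 1 and 0.0204 with the replicate block) and the salt-sensing kinase Sgk1 (-0.05 ± 0.26, adjusted p = 0.918) did not pass.

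The largest differences in favour of Th17 beyond these lists included Pxdc1, Xkrx and Cpe. Pxdc1 read 1.33, 1.25 and 1.05 in Th17 and was above background on no Th1 array, at least 78.4-fold higher (limma adjusted p = 1.03e-05). Xkrx, an XK-family membrane protein gene, read 1.55, 0.64 and 2.14 in Th17 and 2.15 to 2.31 on the naive arrays but was above background on no Th1 array, at least 92.1-fold higher in Th17. Cpe, carboxypeptidase E, which trims peptide hormones, read 4.08, 3.53 and 4.33 against -2.65, -2.57 and -2.05 (84.6-fold, adjusted p = 7.18e-06). Lingo4, whose product is a leucine-rich repeat membrane protein, was 115-fold higher. Jcad, a junction protein of endothelial cells, was at least 51.9-fold higher and Serpinb1c, a relative of Serpinb1a whose probe may share sequence with it, at least 16.9-fold. 5830411N06Rik, a scavenger receptor gene, was 86.6-fold higher (6.44 ± 0.48), or 61.6-fold with arrays below the lowest signal above background set at that signal. Kit, the receptor of stem cell factor, read 3.46, 3.13 and 3.76 in Th17 and -0.92, -1.05 and -1.15 in Th1 (22.5-fold, 4.49 ± 0.18, adjusted p = 7.87e-06). Among the largest differences, Il23r, Iltifb and Lingo4 were above background on 2 of the 3 Th1 arrays and Aqp3, Tmem176a and 5830411N06Rik on 1. With arrays below the lowest signal above background set at that signal, Lingo4 was 102-fold higher. Xkrx and Aqp3 were low in Th1 relative to both other populations, while Kit in Th1 lay just below the -0.62 to -0.19 of the naive arrays.

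Chemokine genes differed in both directions. Of 10 tested, 4 were higher in Th1 and 3 in Th17. Ccl3, Ccl4 and Ccl5 attract T cells and monocytes, and Xcl1 attracts cross-presenting dendritic cells. Ccl4 read 6.93, 6.59 and 5.78 on the Th1 arrays and 1.09, 1.11 and 1.43 on the Th17 arrays, a 37.3-fold difference (-5.22 ± 0.38, limma adjusted p = 7.2e-05). Ccl3 read 4.23, 4.0 and 3.06 against -0.57, -1.66 and -2.14 (37.2-fold, adjusted p = 0.00153). Ccl5 read 4.89, 4.30 and 3.58 against 0.51, -0.08 and 0.56 (15.2-fold, adjusted p = 0.000304). Xcl1 was 16.1-fold higher in Th1 (-4.01 ± 0.68, adjusted p = 0.00571). Of those higher in Th17, Cxcl16 differed by 1.33 ± 0.12 (adjusted p = 0.000215) and Cxcl10, an interferon-induced chemokine, by 1.14 ± 0.20 (adjusted p = 0.00633). Ccl9 was above background on no Th1 array and at least 2.08-fold higher in Th17 (adjusted p = 0.0495), a call lost without Th1 replicates 2 or 3 or Th17 replicates 1 or 3 (up to 0.129). Like nearly all called genes, these 7 did not overlap between the groups. For Ccl3 and Ccl4 the 3 naive arrays lay above or within the range of the Th17 arrays, at -1.72 to 0.83 and 1.60 to 2.95.

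Of the 10 Th1 cytokines and chemokines tested 5 were higher in Th1, the fifth being Fasl, the death ligand (-1.41 ± 0.15, limma adjusted p = 0.000574). Tnf was higher in Th17, with 6.33, 6.68 and 6.54 against 5.18, 5.97 and 5.77 (0.88 ± 0.25, adjusted p = 0.0485), a call that was lost when any 1 of the 6 arrays was left out (adjusted p 0.0505 to 0.123). Il2 read 8.93, 9.06 and 9.33 in Th17 and 8.63, 8.74 and 8.34 in Th1 (0.54 ± 0.22, adjusted p = 0.146), and Il3 (0.41 ± 0.45), Lta (0.06 ± 0.58) and Ltb (1.11 ± 0.61) did not pass either. The median of the list was -0.68. Among the TNF family ligands as a whole, 4 of 14 were higher in Th17 (Cd40lg, Tnfsf14, Tnf and Tnfsf8, the last with adjusted p = 0.0262) and 3 in Th1 (Tnfsf4, Fasl and Tnfsf10). Tnfsf4, the OX40 ligand, read -0.46, -1.26 and -0.88 in Th1 and -3.54, -4.01 and -4.59 in Th17 (9.07-fold, adjusted p = 0.00021).

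The Th1 regulators that passed were higher in Th1. Tbx21, the gene of T-bet, read 4.98, 5.04 and 4.74 in Th1, 4.10, 4.45 and 4.35 in Th17 and 4.56 to 5.06 in the stimulated naive cells, a 1.54-fold difference between the sorted groups (-0.62 ± 0.16, limma adjusted p = 0.0373). Its call was lost in 5 of the 6 fits that left out 1 array, all but the one without Th1 replicate 3 (adjusted p up to 0.121). Stat4 differed by -0.52 ± 0.12 (adjusted p = 0.0249), and was not called once any of Th1 replicates 1 and 2 or Th17 replicates 2 and 3 was left out. Eomes, the T-box factor related to T-bet, read -2.17, -1.01 and -1.81 in Th1 and was above background on only 1 Th17 array (-4.51 ± 0.64, adjusted p = 0.00241; 12.4-fold, against 22.8-fold as measured, with the arrays below the lowest signal above background set at that signal), but the naive arrays were higher still, at -0.69 to -0.08. Irf8 was 2.50-fold higher in Th1 (adjusted p = 0.0164). In all, 4 of 10 regulators were higher in Th1, none was higher in Th17 (6 and 1 at an unadjusted limma p under 0.05), and the median was -0.57. Runx3 (-0.49 ± 0.19, adjusted p = 0.12), Hlx (-0.64 ± 0.42, adjusted p = 0.342) and Id2 (0.24 ± 0.16, adjusted p = 0.362) did not pass.

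The surface receptors usually listed for Th1 cells went both ways, 3 of 14 being higher in Th1 and 4 higher in Th17. Of those 4, Klrc1 and Klrk1 would not have met the filter on dim probes without the Th17 arrays. Cxcr3, the receptor of the interferon-induced chemokines, read 7.0, 6.52 and 6.35 in Th1 and 5.70, 5.33 and 5.59 in Th17 (2.12-fold, limma adjusted p = 0.00448), both far above the -0.48 to -0.37 of naive cells. Crtam, an adhesion molecule of cytotoxic lymphocytes, was 5.13-fold higher in Th1 (-2.36 ± 0.11, adjusted p = 9.44e-06). Ifngr2, the signalling chain of the interferon gamma receptor, read -0.44, 0.14 and -0.81 in Th17 and -3.38, -2.30 and -3.40 in Th1 (6.31-fold, adjusted p = 0.00152), below the 0.99 to 1.51 of naive cells, while the binding chain Ifngr1 did not pass (0.25 ± 0.19, adjusted p = 0.434).

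The lectin-like receptor Klrc1, the NKG2A gene, read -0.03, -0.26 and -0.48 in Th17 and was above background on no Th1 array, at least 28.4-fold higher in Th17 (limma adjusted p = 3.28e-05). Klrk1, the NKG2D gene, was near the floor, at -3.91 to -4.87 in Th17 and above background on no Th1 array (at least 1.76-fold). Havcr2, the inhibitory receptor TIM-3, was 2.73-fold higher in Th17 (1.45 ± 0.31, adjusted p = 0.0161), but not when Th1 replicate 2, Th1 replicate 3 or Th17 replicate 2 was dropped (up to 0.0538). Il18r1 (0.93 ± 0.69, adjusted p = 0.404) and Il18rap (0.14 ± 0.42, adjusted p = 0.861) did not pass. Of 12 genes of cytotoxic granules, 3 were higher in Th1, namely Ctsw (4.21-fold), Nkg7 (3.04-fold) and Gzmm (2.11-fold), and none was higher in Th17 (3 and 1 at an unadjusted limma p under 0.05). Perforin, Prf1, read 0.25 to 0.49 in Th1 and 0.22 to 0.48 in Th17.

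Apart from Ifng and the chemokines, the largest differences in favour of Th1 included Actbl2, Sostdc1, Wnt3 and Nrn1. Actbl2, an actin-like gene, read 0.06, 0.33 and 0.34 in Th1 and was above background on no Th17 and no naive array, at least 51.4-fold higher in Th1 (limma adjusted p = 6.26e-08). Sostdc1, a secreted antagonist of BMP and Wnt ligands, read 1.78, 2.08 and 1.41 in Th1 and -6.31, -4.15 and -5.49 in Th17 (135-fold, adjusted p = 6.9e-05). The Wnt ligand Wnt3 read -0.01, 0.14 and 0.43 in Th1 and was at least 49.4-fold higher than in Th17 (adjusted p = 5.23e-05). Nrn1, neuritin, read 6.18, 6.35 and 6.04 against 0.28, 0.74 and 0.73 (48.9-fold, adjusted p = 2.54e-06), and -3.69 to -3.27 in naive cells. Nts, the neuropeptide neurotensin, was 27.8-fold higher in Th1, Sh3rf2 72.7-fold and Chn1 30.9-fold. The carboxylesterase Ces2b was 28.5-fold higher, Stfa3, a stefin family member whose near-identical relatives may share its probe, 62.1-fold, Col24a1, a collagen gene, at least 12.4-fold and Csgalnact1, which starts chondroitin sulfate chains, at least 18.2-fold. 1810009J06Rik, a trypsinogen-like gene, read 3.67, 4.10 and 4.27 in Th1 and -1.09, -1.62 and -0.62 in Th17. Lack of overlap between the groups was a condition for naming these genes. On the Th17 arrays Chn1 and Stfa3 were above background on 2 of 3 and Sostdc1 and Sh3rf2 on 1. With the other Th17 arrays raised to the lowest signal above background where they lay below it, Sh3rf2 was 42.3-fold higher.

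Beyond the interleukin-6 and interleukin-1 receptors, cytokine sensing genes differed in both directions. Of the 14 receptor chains of the interleukin-6, interleukin-12 and common gamma families, 4 were higher in each group. Il21r was 2.86-fold higher in Th1 (limma adjusted p = 0.000896) and Il7r (0.84 ± 0.19, adjusted p = 0.0217) and Il2ra (0.81, adjusted p = 0.0173) higher in Th17. The Il7r call was lost without Th1 replicates 2 or 3 or Th17 replicates 1 or 2 (up to 0.0702). Of 12 genes of the interleukin-1, interleukin-18 and interleukin-33 receptors, 3 were higher in Th17, among them Irak3, an inhibitory kinase of that pathway (5.08-fold, above background on 1 Th1 array). Irak3 was 3.98-fold higher with arrays below the lowest signal above background set at that signal. Of 20 JAK, STAT and SOCS genes, 6 were higher in Th1 and none in Th17 (9 and 2 at an unadjusted limma p under 0.05), with a median of -0.31. Socs3, the feedback inhibitor of Stat3 signalling, read 5.75, 4.27 and 4.12 in Th1 and 3.18, 1.99 and 1.25 in Th17 (-2.57 ± 0.58, adjusted p = 0.0198). Socs5 (-1.17 ± 0.15) and Socs2 (-1.08 ± 0.19) went the same way with Stat3, Stat4 and Stat5a (-0.46 ± 0.09).

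Chemokine receptors divided the populations. Of 14 tested, 5 were higher in Th17 and 4 in Th1. Besides Ccr6, Th17 had more Ccr4, the skin-homing receptor, at 4.75, 4.94 and 4.98 against 1.99, 2.39 and 1.45 (7.71-fold, limma adjusted p = 0.000265), and more Cxcr6, at 6.67, 6.67 and 7.0 against 4.81, 4.75 and 4.06 (4.73-fold, adjusted p = 0.000309). Ccr9, the gut-homing receptor, read -0.89, -1.42 and -0.30 in Th17 and -4.10, -3.63 and -3.66 in Th1 (7.59-fold). Th1 had more Cxcr5, the B cell follicle receptor, at 1.82, 1.42 and 1.48 against -0.83, -1.25 and -0.20 (5.04-fold, adjusted p = 0.000795), and more Ccr7, the lymph node receptor, at 5.73, 6.14 and 5.73 against 2.87, 3.99 and 3.96 (4.78-fold, adjusted p = 0.00141). Ccr7 was highest in naive cells, at 7.29 to 7.53, and each of these receptors was separated between Th1 and Th17 without overlap.

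Follicular helper and regulatory T cell genes were more often called higher in Th1 than in Th17. Of 12 follicular helper genes, 6 were higher in Th1 and 1, Cd40lg, in Th17, with a median of -0.54; Tox read 3.73, 3.59 and 3.21 in Th1 against 1.40, 1.37 and 2.04 in Th17 (3.77-fold, limma adjusted p = 0.00271), and the signalling adaptor Sh2d1a was 2.61-fold and Slamf6 2.15-fold higher in Th1. Bcl6, the lineage factor of those cells, did not pass (-0.21 ± 0.13, adjusted p = 0.298). Of 15 regulatory T cell genes, 7 were higher in Th1 and 1, Il2ra, in Th17, with a median of -0.81. Ikzf2, the Helios gene, read 3.86, 4.11 and 3.57 in Th1, 1.30, 1.35 and 1.97 in Th17 and -5.36 to -4.48 in naive cells (4.95-fold, adjusted p = 0.000922), and Izumo1r, the folate receptor 4 gene, was 5.33-fold higher in Th1.

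Foxp3, the lineage factor of regulatory T cells, read 1.04, 1.93 and 1.37 in Th1 and 0.64, 0.81 and 0.47 in Th17 (-0.81 ± 0.21, limma adjusted p = 0.0338), a call lost in every fit without 1 array except that without Th1 replicate 1 (adjusted p up to 0.0927). Ctla4 (-0.65 ± 0.38, adjusted p = 0.282) and Il10 (-0.94 ± 0.31, adjusted p = 0.0768) did not pass. Il10 did pass with quantile normalization and with normexp on 1 background value per array. The part of regulatory or follicular helper cells within the sorted fractions was not tested. Of 15 inhibitory receptors and ectoenzymes, 4 were higher in Th1, led by Lag3 at 2.07, 2.10 and 2.18 against 0.09, -0.68 and -0.65 (5.78-fold, adjusted p = 0.000109), and only Havcr2 was higher in Th17. Of 14 costimulatory and TNF family receptors, Cd27 (4.0-fold), Tnfrsf18 (2.23-fold) and Fas were higher in Th1 and none in Th17 (5 and 1 at an unadjusted limma p under 0.05). In the Th2 list, 2 of 11 genes were higher in Th17 (Ccr4 and Areg, a growth factor, 4.49-fold) and Il4 was higher in Th1. Il4 read 7.37, 7.28 and 6.12 in Th1 and 5.22, 5.58 and 5.16 in Th17 (3.04-fold, adjusted p = 0.0216), but dropping any of Th1 replicates 1 and 2 or Th17 replicates 1 and 3 ended the call (up to 0.0775). Il5 read 6.98, 6.40 and 6.22 in Th17 and 3.85, 3.90 and 1.85 in Th1, which did not overlap but did not pass (3.33 ± 1.37, limma adjusted p = 0.143). Il5 passed in the fit of the sorted groups alone and with both normexp corrections, but in no fit without 1 array (limma adjusted p 0.197 to 0.315). Il13 (-0.30 ± 0.69, adjusted p = 0.808) and Gata3 (-0.35 ± 0.20, adjusted p = 0.283) were within the spread.

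Galectin, annexin and S100 genes of memory cells were called mostly higher in Th17. Of 16 memory and migration genes tested, 6 were higher in Th17 and 1, the integrin chain Itgb1, in Th1, with a median of 0.73. Lgals3, galectin-3, read 5.23, 5.28 and 4.68 in Th17 and 0.23, -0.69 and -1.15 in Th1 (48.6-fold, limma adjusted p = 0.000117). Anxa1, annexin A1, was 6.14-fold higher (adjusted p = 0.0037), Lgals1 3.58-fold, Capg 2.97-fold and S100a4 higher by 2.42 on the log2 scale. Cd44, the common memory marker, read 5.65 to 6.05 in Th17 and 5.46 to 6.14 in Th1 (adjusted p = 0.796). Of the 16 genes of the naive state, 3 were higher in each group; Dapl1, abundant in naive cells, was above background on no Th17 array and at least 6.73-fold higher in Th1, while Satb1, a chromatin organiser, was 2.87-fold higher in Th17. Of 13 integrin chains 3 were higher in each group, with Itga3 (2.67) and Itgb3 (1.49) among those of Th17 and Itgb8 (-2.11) and Itga4 (-1.71) among those of Th1. Itgb3 did not pass without Th1 replicate 3 (adjusted p = 0.0534).

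**Figure D3:**
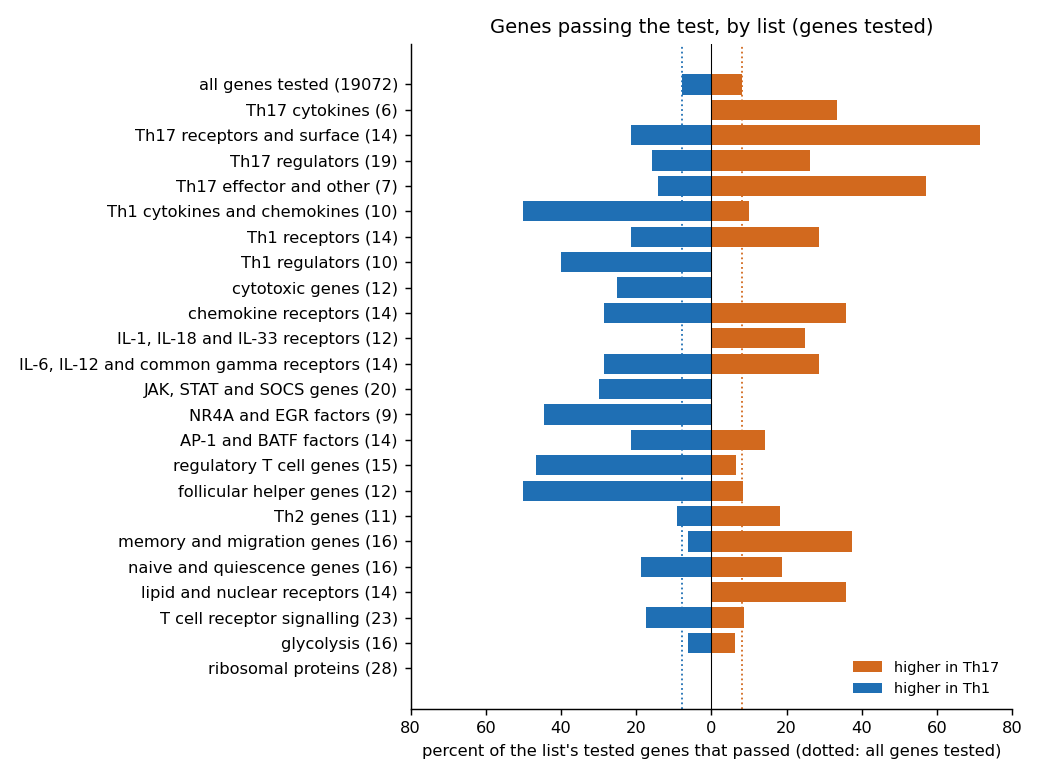
For each gene list, bars show the percent of its tested genes (number in parentheses) that were higher in Th17 (orange, to the right) and higher in Th1 (blue, to the left) at an adjusted p under 0.05; dotted lines give the shares over all 19072 genes, 8.04% and 7.69%. Among the lists drawn, Th17 receptors stand furthest to the right with 10 of 14 genes, and follicular helper genes and Th1 cytokines furthest to the left with 6 of 12 and 5 of 10, and none of 28 ribosomal protein genes passed.

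Genes switched on directly by stimulation were also unequal. Of 9 NR4A and EGR factors, which respond to calcium and MAP kinase signals, 4 were higher in Th1 and none in Th17 (7 and 0 at an unadjusted limma p under 0.05), with a median of -0.54. Nr4a2 read 5.61, 5.65 and 5.22 in Th1 and 3.84, 3.83 and 3.35 in Th17 (3.53-fold, limma adjusted p = 0.000408), and Egr1 6.20, 6.37 and 5.95 against 4.79, 4.72 and 5.12 (2.46-fold, adjusted p = 0.00197). Neither overlapped. Of 14 AP-1 and BATF genes, Jun (2.76-fold, adjusted p = 0.00171) and Bach2 (adjusted p = 0.0389, not followed through the fits without 1 array) were higher in Th17. Fosb (4.17-fold, adjusted p = 0.00014), Fosl2 and Atf3 were higher in Th1. Of 14 NF-kappa-B genes 2 were higher in Th17 (Nfkb1, 0.54, and Nfkbib, 0.61) and Rel in Th1 (-0.58), so 21.4% were called against 15.7% of all genes tested. The Rel and Fosl2 calls were lost without Th1 replicates 1 or 2 or Th17 replicates 2 or 3 (up to 0.073 and 0.106), and the Atf3 call without Th1 replicates 1 or 2 or Th17 replicate 2 (up to 0.0859). Of 23 genes of T cell receptor signalling, Txk, a Tec family kinase, was 6.57-fold higher in Th17 (adjusted p = 0.000215) and the adaptor Sh2d2a (0.93) was also higher there. Themis (-1.05), Cd3g, Cd3e and Plcg1 (adjusted p = 0.0298) were higher in Th1.

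Of 14 nuclear receptors 5 were higher in Th17 and none in Th1 (6 and 2 at an unadjusted limma p under 0.05), with a median of 0.40. Rarg, a retinoic acid receptor, read 0.37, 1.07 and 0.83 in Th17 and -3.59, -2.76 and -3.14 in Th1 (15.1-fold, limma adjusted p = 3.28e-05). Vdr, the vitamin D receptor, read -1.20, -1.71 and -1.16 against -4.80, -3.66 and -3.99 (6.93-fold, adjusted p = 0.000444, above background on 2 Th1 arrays), and Nr1d1, the clock repressor REV-ERB-alpha, -0.01, -0.13 and 0.16 against -2.39, -2.69 and -2.19 (5.39-fold, adjusted p = 3.22e-05). For Vdr and Nr1d1 the naive arrays, at -2.41 to -2.04 and -0.41 to -0.18, lay above Th1. In the TGF-beta pathway 2 of 18 genes were higher in Th17, the receptor Tgfbr1 (1.10 ± 0.28) and Acvr2a (0.91), and 4 in Th1, led by the co-receptor Tgfbr3 (-2.08 ± 0.24) and the signal transducer Smad1 (-1.24 ± 0.11). The Tgfbr1 call ended when any of Th1 replicates 1 and 3 or Th17 replicates 2 and 3 was dropped (up to 0.0931), and the Acvr2a call without Th17 replicates 1 or 2 (up to 0.0614).

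Of 16 interferon response genes, 2 were higher in each group. Gbp2 read 3.30, 3.65 and 2.98 in Th17 and 0.63, 1.21 and 0.43 in Th1 (5.86-fold, limma adjusted p = 0.000287), and Irgm1, like Gbp2 an interferon-induced GTPase, 4.43, 4.78 and 4.13 against 1.81, 2.52 and 1.65 (5.48-fold, adjusted p = 0.000639). The naive arrays were above both groups, at 4.16 to 4.58 and 5.39 to 5.97. Isg15 (-0.28) did not pass. Of 16 genes of DNA methylation 18.8% were called, near the 15.7% of all genes tested. Tet2 (-0.84 ± 0.16) and Gadd45g (-1.37 ± 0.34) were higher in Th1 and Mbd2 (0.78 ± 0.16) in Th17, while the maintenance methyltransferase Dnmt1 differed by -0.19 and did not pass. The Gadd45g call was lost without Th1 replicates 1 or 3 or Th17 replicates 2 or 3 (up to 0.0759).

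Ribosomal protein genes did not pass. None of 28 was called by limma, none had an unadjusted p under 0.05, and the median was 0.14. Of 16 glycolysis genes 1 was higher in each group, so 12.5% were called against 15.7% of all genes tested. They were the lactate exporter Slc16a3 in Th17 (2.28-fold) and Pfkp in Th1 (-0.57). The Pfkp call was lost without Th1 replicates 1 or 3 or Th17 replicate 2 (adjusted p up to 0.0772). Of 18 cholesterol and fatty acid synthesis genes 4 were higher in Th17, among them Fdps (0.74), Sc5d (0.81) and Idi1 (0.83), and Scd2 was higher in Th1 (-1.0). The Idi1 call was lost without any array but Th17 replicate 1 (up to 0.122). Of 18 cell cycle genes 3 were higher in Th17, the cyclin Ccna2 (at least 3.04-fold), Cdkn1a (0.78) and Mcm3 (0.44). The 16.7% called was near the share over all genes tested. The Cdkn1a call was lost without any array but Th1 replicate 2 and the Mcm3 call without any but Th17 replicate 2 (up to 0.11 and 0.126). Of 11 stress genes 4 were higher in Th17, with Asns at 6.67, 6.75 and 6.77 against 5.63, 5.76 and 5.29 (2.24-fold, limma adjusted p = 0.00128) and Trib3, Hsph1 and Sesn2 by under 2-fold. Sesn2 did not pass when any 1 array was left out (0.0583 to 0.145), Trib3 without Th1 replicates 1 or 3 or Th17 replicates 2 or 3 (up to 0.0695) and Hsph1 without Th1 replicate 2 or any Th17 replicate (up to 0.0564).

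Markers of other cells that a sort could carry were read on the same arrays. Of 9 B cell markers on the array 5, Ms4a1 among them, were above background on no Th1 or Th17 array. The 9 summed to 0.00 to 0.40 in Th1 and -0.23 to 0.11 in Th17, of which Cd22 alone read -0.23 to 0.02 and -0.58 to -0.09. Cd8a was above background on none, and Cd8b1 read -4.14 to -3.86 in Th1 and -4.38 to -3.86 in Th17. The 12 myeloid markers summed to 4.71 to 5.06 in Th1 and 4.51 to 4.95 in Th17, of which Itgam alone read 4.55 to 4.83 and 4.09 to 4.79. Of the 7 tested 1 passed, Cd14, higher in Th17 (5.52-fold). Among those not tested, Lyz2 was above background on 2 Th17 arrays and no Th1 array, Lyz1 on 1 Th17 array and no Th1 array, and S100a8 on 1 of each group. S100a9 varied by array from -6.36 to -0.73 in Th1 and from -6.94 to -0.65 in Th17, and haemoglobin Hba-a1 from -4.85 to 0.36 and from -0.22 to 1.45. The NK cell and invariant NKT markers summed to 5.17 to 5.40 in Th1 and 5.34 to 5.63 in Th17, of which Il2rb, a receptor chain that T cells share, alone read 5.14 to 5.37 and 5.32 to 5.54. Of the 4 tested, Zbtb16, the invariant NKT cell factor PLZF, was 3.52-fold higher in Th17, Eomes was higher in Th1 as given above and Il2rb and Klra1 did not pass, Klra1 reading 1.46 on Th17 replicate 3 alone against -2.29 to -1.42 on the other 5 arrays. Klrd1, not tested, was above background on 2 Th17 arrays and no Th1 array, and the other untested NK markers on none of either group.

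Gamma-delta T cells and innate lymphoid cells also make interleukin-17A, and some of their markers were higher in Th17. The 8 gamma-delta markers on the array summed to 2.41 to 3.37 in Th1, 5.02 to 5.16 in Th17 and 0.87 to 1.11 in naive cells, 5 of the 7 tested were higher in Th17 and none in Th1 (6 and 0 at an unadjusted limma p under 0.05), and the median was 4.43. Of those 7, 4 genes, Il1r1, Zbtb16 and Maf among them, also belong to the Th17 lists above; of the others Cd163l1 read -2.36, -1.85 and -3.56 in Th17 and was above background on no Th1 array (at least 5.64-fold), 5830411N06Rik was higher as given above, and Sox13 did not pass (0.04 ± 0.13). Blk was above background on no array, and the gamma-delta receptor constant genes were not read by symbol. Without the Th17 arrays, Il1r1, Cd163l1 and 5830411N06Rik would not have met the filter on dim probes. They entered the test through the group where they were high. The count of 5 and the median, which is the value of Cd163l1, follow partly from that. Innate lymphoid and mast cell markers summed to 5.26 to 5.79 in Th1 and 6.34 to 6.65 in Th17. Of these, Id2 alone read 4.88 to 5.33 and 5.04 to 5.57, and Rora, one of the Th17 regulators above, 2.79 to 3.47 and 4.94 to 5.26. Of the 5 tested, Kit and Rora were higher in Th17 and 3, Id2 among them, did not pass. Fcer1a, Cpa3, Gata2 and Mcpt4 were not above background on enough arrays to be tested. The sort required CD3 and CD4 at the surface, and the part of such cells in the results was not tested.

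The 250 bases before the annotated start were read from RefSeq (GRCm38.p6) for 10478 of the tested genes. They are shown for 5 genes whose windows each hold a match, so these 5 do not stand for the genes of either group. Capitals mark matches on either strand to letters bound by factors of both programmes: the element of ROR-family receptors (TAGGTCA, or TGGGTCA), the core recognised by T-box factors such as T-bet (GGTGTGA) and the site of AP-1 (TGANTCA). Il17a (chr1:20730655-20730904, + strand) is the sorted cytokine and Il23r (chr6:67491856-67492105, - strand) and Ccr6 (chr17:8235793-8236042, + strand, the first of 2 annotated starts) are receptors higher in Th17. Ccl3 (chr11:83649379-83649628, - strand) and Xcl1 (chr1:164935523-164935772, - strand) are chemokine genes higher in Th1.
Il17a: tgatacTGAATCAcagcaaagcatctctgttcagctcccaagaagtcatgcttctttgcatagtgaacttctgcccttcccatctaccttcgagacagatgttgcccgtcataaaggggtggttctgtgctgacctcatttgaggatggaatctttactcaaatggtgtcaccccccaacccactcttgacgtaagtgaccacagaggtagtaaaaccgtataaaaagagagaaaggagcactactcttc
Il23r: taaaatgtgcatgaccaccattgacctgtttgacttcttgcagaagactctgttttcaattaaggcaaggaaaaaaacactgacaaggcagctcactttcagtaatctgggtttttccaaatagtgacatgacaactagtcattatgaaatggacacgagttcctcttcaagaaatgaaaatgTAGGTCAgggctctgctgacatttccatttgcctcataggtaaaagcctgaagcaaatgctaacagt
Ccr6: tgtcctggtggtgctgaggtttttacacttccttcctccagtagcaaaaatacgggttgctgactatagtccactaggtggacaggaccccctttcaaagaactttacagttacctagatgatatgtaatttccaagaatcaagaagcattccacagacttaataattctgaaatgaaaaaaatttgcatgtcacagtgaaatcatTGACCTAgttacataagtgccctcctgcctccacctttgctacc
Ccl3: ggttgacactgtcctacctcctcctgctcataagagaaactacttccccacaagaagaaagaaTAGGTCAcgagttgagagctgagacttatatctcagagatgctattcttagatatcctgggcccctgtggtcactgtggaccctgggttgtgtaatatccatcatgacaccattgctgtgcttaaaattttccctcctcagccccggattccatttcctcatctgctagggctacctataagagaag
Xcl1: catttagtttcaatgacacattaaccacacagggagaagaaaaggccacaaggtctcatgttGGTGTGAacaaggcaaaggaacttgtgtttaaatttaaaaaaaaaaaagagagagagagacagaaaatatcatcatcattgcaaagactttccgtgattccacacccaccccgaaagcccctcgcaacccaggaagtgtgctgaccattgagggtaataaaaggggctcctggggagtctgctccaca
The Il23r and Ccr6 windows hold TAGGTCA 67 and 44 bases before the start, Ccr6 on the opposite strand, and the same letters stand 187 bases before the start of Ccl3, a gene that was 37.2-fold higher in Th1. Among the other genes chosen for naming, TAGGTCA stands in windows of Serpinb1c, higher in Th17, and of Stat4, Stat5a, Gm10413, Gm3317 and Gm5797, higher in Th1. It also stands in that of Nfil3, which did not pass. The Il17a window holds an AP-1 site 244 bases before the start, and that of Xcl1 a T-box core at 188. The windows of Il17f, Il22, Il1r1 and Ifng held none of these letters, which says only that they are not in these windows.

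Across the windows of all tested genes, the AP-1 site differed most between the groups. It stood in 4.85% of 13207 windows, in 6.71% of the 1267 windows of genes higher in Th17 and in 3.65% of the 1095 windows of genes higher in Th1. Among genes at least 2-fold apart it stood in 9.53% of 493 windows for Th17 and 4.18% of 478 for Th1. TAGGTCA stood in 1.71% of all windows, 2.45% of those of Th17 and 1.55% of those of Th1, and TGGGTCA in 2.88%, 2.60% and 3.29%. The T-box core stood in 2.92%, 2.60% and 3.38%. Some genes give several overlapping windows, and the median GC content of the windows was 58.8% for all genes, 58.0% for Th17 and 60.8% for Th1, so these shares are descriptions of sequence and carry no test.

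Several of the largest differences lay side by side in the genome. Of 12652 pairs of neighbouring protein-coding genes that were both tested (in RefSeq order, passing over untested genes), 532 had both members called. In 206 pairs both were higher in Th17, in 168 both were higher in Th1, and 158 were called in opposite directions. Over all genes tested 8.04% were higher in Th17 and 7.69% in Th1. Whether neighbours shared a direction more often than those shares give was not tested. Genes named only in this paragraph were picked after their values were seen. Lingo4 (6.84 ± 0.39) and Tdrkh, a Tudor domain gene above background on no Th1 array (at least 4.92-fold), are neighbours, and a run was formed by Il17a, Il17f, Mcm3 and Paqr8 (at least 2.05-fold). The killer lectin genes Klrk1, Klrc3 and Klrc1 were all higher in Th17; Klrc3 read 0.77, 0.54 and -0.05 in Th17 and -4.56, -5.34 and -5.88 in Th1, above background on 1 Th1 array, although its second probe differed by only 0.95, and the near copies of this family may share probes. On the Th1 side Wnt3 stood with Rprml (-4.04 ± 0.46), Gosr2 (-1.18 ± 0.14) and Wnt9b (-1.60 ± 0.14), and Stfa3 with the costimulatory ligand Cd86 and Ildr1 (at least 4.74-fold). Cd86 read -0.75, -0.52 and -1.08 in Th1 and -5.62, -5.15 and -4.60 in Th17 (-4.34 ± 0.68, limma adjusted p = 0.00415). On the Th17 arrays Cd86 and Wnt9b were above background on 2 of 3 and Rprml on 1; with the others at the lowest signal above background Rprml was 9.76-fold rather than 16.5-fold higher in Th1. The longest run was 8 genes of 1 family on chromosome 14, from Gm10413 to Gm5797, that were lower in Th17 by 2.88 to 3.64; their sequences are close copies of each other, so their probes cannot be taken as 8 separate measurements.

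**Figure D4:**
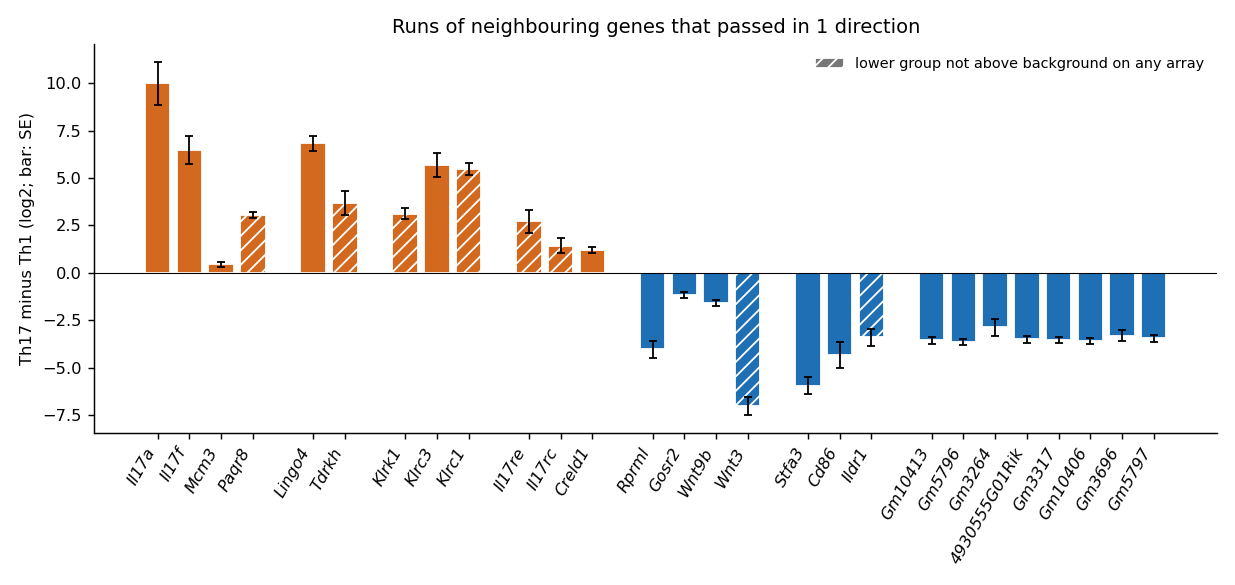
Bars give the Th17 minus Th1 difference (log2) of genes in 7 runs of neighbouring tested genes called in 1 direction, with the standard error of the fit; hatched bars mark genes whose lower group was not above background on any array, where the true difference has only a lower bound. The 8 genes of the chromosome 14 family on the right lie between -3.64 and -2.88.

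The arrays were spread over 3 slides. Th1 replicate 1 shared slide 1 with the naive samples, Th1 replicates 2 and 3 shared slide 2 with Th17 replicates 1 and 2, and Th17 replicate 3 was alone on slide 3. Within slide 2, 2 arrays against 2, 1404 genes passed (699 higher in Th17 and 705 in Th1), and 1230 of the 3001 genes called from all arrays passed again, all 3001 keeping their direction. Il17f differed there by 6.82, Il22 by 8.0 and Stat3 by -1.26 (limma adjusted p = 0.0185). The calls of Areg, Capg, Cd9, Cxcr3, Etv6, Fas, Fdps, Foxp3, Gbp6, Gm3264, Il6st, Mbd2, Nfkb1, Nfkbib, Acvr2a, Cxcl10, Pdcd1lg2, Socs2 and Tgtp2 were lost in those 4 arrays. The slide as a block in the fit over all arrays gave 2100 calls. The calls of Havcr2, Il17re, Irf8, Nebl and Tdrkh were lost with that block, and those of Atf3, Ccl9, Cd3e, Cd4, Cdkn1a, Fosl2, Gadd45g, Hsph1, Idi1, Il4, Mcm3, Pfkp, Rel, Runx1, Sc5d, Sesn2, Stat4, Stat5a, Tbx21, Tet2, Tgfbr1, Tnf, Tnfsf10 and Trib3 both with it and within slide 2.

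**Figure D5:**
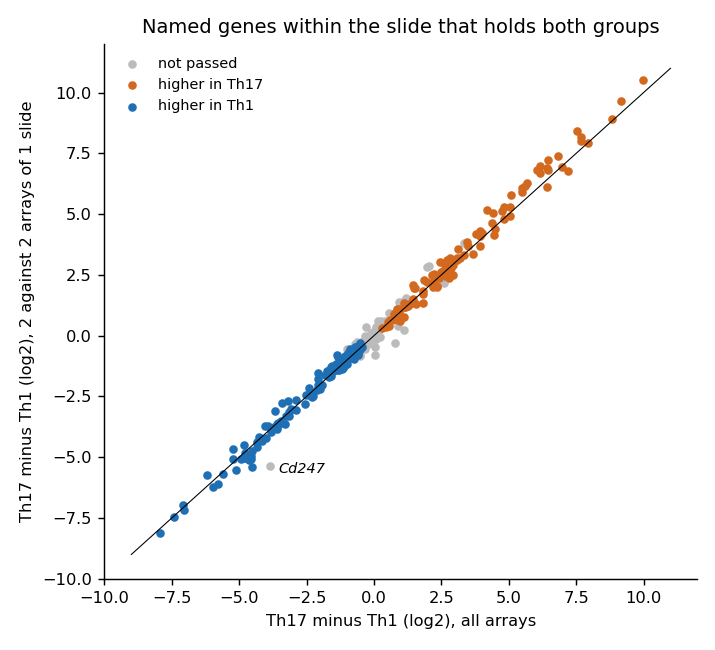
Each point is 1 of 284 genes chosen for naming, with its Th17 minus Th1 difference (log2) over all arrays on the horizontal axis and within the slide that held 2 arrays of each group on the vertical axis; the line marks equality. 253 of the 284 points lie within 0.5 of the line. Klra1, not called, turned from 0.77 to -0.28, and the point farthest off is Cd247, which 1 of the 2 Th17 arrays on that slide read at -7.60.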

How the data were processed

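Total RNA of 9 sorted samples, 0.5 µg each, was Cy3-labelled and read on Agilent mouse gene expression arrays in 1 colour (design 026655). The deposited scanner files hold processed spot intensities, from which the Agilent Feature Extraction software had subtracted background but which were not normalized across arrays; the file headers name version 10.7.3.1 and the submitters' processing notes version 10.5. The value table that was deposited holds log2 values, which per its match to the scanner files are the same signal shifted per array and per probe by an unstated baseline, and it was used as an alternative only. Control and outlier spots were dropped, log2 of the processed intensity was set to each array's 75th percentile over non-control spots, and spots of a probe were averaged. RefSeq accessions gave a symbol for 27234 of 39429 probes. A probe was kept if 3 or more of the 9 arrays read it well above background (53.4% to 58.3% of probes were above background on an array), and the probe brightest over the 9 stood for a gene. Genes above background in 1 group alone thus entered the test through the group where they were high. The 3 groups were fitted together by limma (3.58.1; R 4.3.3), with two-sided p-values adjusted by Benjamini-Hochberg over 19072 genes. Where no array of the lower group was above background, "at least" folds set the bright group's mean against the dim group's mean of, per array, the higher of the probe's own signal and the lowest signal among probes above background. The fit was also run on simulated data with independent noise and no slide effect, scaling shift or floor, so that run cannot show whether the calls hold against those. Array number limits the precision.

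Named genes were the 15 largest called differences in each direction that did not overlap and were above background in the higher group, all members of the lineage lists, up to 4 called members of each other list, and markers of other cells; some genes that this rule names are not reported here, and genes outside it were picked after their values were seen. Members, lists and tests were chosen with earlier results of these data known. The gene reference (GRCm38) is not the build in the array headers, so it gave names, neighbours and upstream sequence only. Replicate numbers are not said to pair the samples, and the residuals of same-numbered arrays correlated across genes at Pearson r of -0.01 to 0.18, so no block was used. A summed marker level is log2 of the sum of the linear scaled signals.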

Additional observations from a re-analysis of the deposited data

How the results depend on the processing

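Of the 3001 genes called, all kept their direction with quantile normalization, another percentile, the slide as a block, within 1 slide, the replicate block, the sorted groups alone and each array left out, 2984 did with normexp on 1 background value per array and 2618 with the planned normexp correction, under which 172 stayed called, and with the mean of a gene's probes 1 was called the other way. Leaving out 1 array gave 1917 to 2525 calls, 994 to 1291 higher in Th17 and 923 to 1234 higher in Th1, the lowest without Th1 replicate 2. Without the filter on dim probes 996 genes were higher in Th17, and within the shared slide 1404 passed, 699 in Th17 and 705 in Th1. The replicate number as a block gave 3006 calls, 1483 higher in Th17 and 1523 in Th1; the labels do not say that the numbers pair the samples, and residuals of differently numbered arrays correlated at -0.20 to 0.06 against -0.01 to 0.18 for the same number. The deposited value table gave 3012 and the fit of the sorted groups alone 2200. Calls higher in Th17 made up 51.1%, 41.6% with the percentile over probes above background on all arrays and 39.1% with the planned normexp correction. That correction gave 174 calls, 68 and 106 by direction, all 174 at least 2-fold: on Th1 replicate 2, 6 spots had a local background over 50 above their signal, and its fitted background mean was -2092.5 against -40.0 to -5.25 on the other arrays. Under it, among the genes named, Ccl9 (-0.41), Ccna2 (-0.20), Cyp1b1 (-0.37), Il17rc (-0.25), Il1a (-0.15), Irak3 (-0.0089), Klrb1f (-0.13), Klrk1 (-0.21), Nebl (-0.12), Paqr8 (-0.23), Cd3e (0.091), Cd4 (0.0034), Pdcd1lg2 (0.0057), Pfkp (0.095), Stat4 (0.10) and Stat5a (0.22) changed sign. Normexp with 1 background value per array, added after the data were seen, left 713 at least 2-fold calls, and 56.5% of its calls were higher in Th17. Genes near the floor have bounds only. The calls of Bach2, Cd40lg, Il2ra, Itgb1, Plcg1, S100a4, Socs3 and Tnfsf8 were not followed gene by gene through these settings, so whether they hold without 1 array or by slide is not known here.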

Other observations

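The genes of this section were picked after their values were seen and are given as values only. Plau, the urokinase protease, read -2.01, -1.39 and -1.74 in Th17 and was above background on no Th1 array (at least 10.3-fold), and Adam8, a surface protease, read 4.41, 4.55 and 3.98 against -0.54, -0.39 and -1.20 (5.03 ± 0.26). Fut7, which builds selectin ligands, was 22.0-fold higher, Ffar2, a receptor for short-chain fatty acids, 28.6-fold and Cysltr1, a cysteinyl leukotriene receptor, 18.5-fold. Hbegf, an epidermal growth factor family ligand, read 4.03, 4.38 and 3.35 against -0.17, 0.44 and -0.27 (15.1-fold), and Il1a was above background in Th17 alone of the 2 groups (at least 2.26-fold). The peptide processing and hormone genes Pcsk1 (27.0-fold, above background on 1 Th1 array) and Calca (10.9-fold, on 2) were higher in Th17 with Cpe, given above. Other interferon-induced GTPases went with Gbp2 and Irgm1: Gbp4 read 3.39, 3.38 and 2.24 against 0.59, 1.41 and 0.31, Tgtp2 differed by 2.75 ± 0.50 and Gbp6 by 1.82 ± 0.36, the naive means of Gbp4 and Tgtp2 being 5.0 and 6.60. Within slide 2 the calls of Tgtp2 and Gbp6 were lost (limma adjusted p = 0.0732 and 0.0538).

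On the Th1 side Inhba, the activin A subunit, read 3.25, 3.78 and 3.76 against -1.32, -0.64 and -0.79 in Th17 (22.9-fold), and Penk, the enkephalin precursor, read 7.30, 7.29 and 7.11 against 4.38, 3.94 and 4.73 (7.38-fold), with a naive mean of -2.39. Gpm6b, a membrane glycoprotein of neurons, was 23.8-fold higher in Th1, Npas4, an activity-induced neuronal transcription factor, 19.5-fold and Calcr, the calcitonin receptor, at least 4.63-fold. Calca, whose gene also encodes calcitonin, was thus higher in Th17 and the calcitonin receptor gene in Th1. The ligand Xcl1 and its receptor gene Xcr1 (at least 3.07-fold) were both higher in Th1. The cytokine Il19 read 2.02, 0.88 and 1.0 in Th1 and -1.69, -2.63 and -2.79 in Th17 (12.7-fold).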
